A study of Mus musculus with 12 samples.

Results

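The genes described here encode the cation channels of endosomes and lysosomes in the mouse, namely the mucolipins Mcoln1, Mcoln2 and Mcoln3 and the two-pore channels Tpcn1 and Tpcn2. They were found by symbol in a table of 24421 genes, which held all 5, and all 5 also passed the filter on low counts that left 13534 genes for testing. The family was selected on the Mcoln3 counts, which are high in one tumour line and near 0 in the other. The difference of Mcoln3 between the lines is therefore given as a description, with no test, and the other 4 members were taken by family and not by their values.

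The study compared subcutaneous tumours of 2 mouse melanoma lines, B16F10, which metastasises strongly (n = 7 libraries), and B16F0, which does so poorly (n = 5), taken 12 days after injection. All hosts were C57BL/6 mice of the genotype Rpl22fl/flHA;Cdh5(PAC)-CreERT2. Tamoxifen, given to both groups, switches on an HA-tagged ribosomal protein Rpl22 in the cells where the Cdh5 promoter drives Cre, so precipitation of the tag enriches mRNA on ribosomes of endothelial cells. The implanted tumour cells do not carry the tagged allele. Host age is not stated in the labels, nor is it stated whether each library had its own animal, so all p-values rest on the variation among these libraries, which may be technical.

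Mucolipins are channels of endosomes and lysosomes that let calcium and other cations out of the organelle and open in response to a phosphoinositide made there by the kinase PIKfyve. Mcoln1 is the widely expressed member, whose loss causes the lysosomal storage disease mucolipidosis in humans. Mcoln2 is known chiefly from cells of the immune system. Mcoln3 is found in few cell types, among them hair cells of the inner ear and melanocytes, and a mutation that holds the mouse channel open causes deafness and coat colour dilution in varitint-waddler mice. Two-pore channels, found in the same membranes, are relatives of voltage-gated sodium and calcium channels. They take part in calcium release by the messenger NAADP, and TPCN2 sits on the melanosome and affects pigmentation in humans.

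Mcoln3 lies on chromosome 3 of GRCm38 (mm10) from 146117450 to 146141806 on the plus strand. Mcoln2 follows it on the same strand after a gap of 8027 bases, from 146149833 to 146195513. Mcoln1 lies on chromosome 8 from 3500457 to 3515232, Tpcn1 on chromosome 5 from 120534153 to 120588673 and Tpcn2 on chromosome 7 from 145186524 to 145284011. In the annotation no gene overlaps a mucolipin. Tpcn1 and Tpcn2 each overlap another gene on their own strand (2510016D11Rik and 1810010D01Rik), with which reads may be shared.

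The start regions of the 3 mucolipins are shown because Mcoln3 differs between the lines and its paralogs, one of them its direct neighbour, overlap between them. The sequences are those of the reference genome and not of either line, so their motifs cannot tell the lines apart. A part of the motifs in the levels of these genes was not tested. Each sequence is the RefSeq window of GRCm38.p6 from 250 bases before to 50 bases after the start site, on the plus strand. Capitals mark the E-box CACGTG, the core that the MiT family of lysosomal and melanocytic transcription factors can bind. Matches to CATGTG, read on both strands, would also be in capitals. CACGTG reads the same on both strands, and a match to one motif cannot overlap a match to the other.
Mcoln3, chr3:146121541-146121840: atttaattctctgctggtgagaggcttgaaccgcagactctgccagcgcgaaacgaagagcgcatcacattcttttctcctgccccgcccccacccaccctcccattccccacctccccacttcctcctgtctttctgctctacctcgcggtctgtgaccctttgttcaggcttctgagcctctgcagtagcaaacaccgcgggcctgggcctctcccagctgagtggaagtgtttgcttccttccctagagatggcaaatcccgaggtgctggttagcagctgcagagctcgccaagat
Mcoln2, chr3:146149924-146150223: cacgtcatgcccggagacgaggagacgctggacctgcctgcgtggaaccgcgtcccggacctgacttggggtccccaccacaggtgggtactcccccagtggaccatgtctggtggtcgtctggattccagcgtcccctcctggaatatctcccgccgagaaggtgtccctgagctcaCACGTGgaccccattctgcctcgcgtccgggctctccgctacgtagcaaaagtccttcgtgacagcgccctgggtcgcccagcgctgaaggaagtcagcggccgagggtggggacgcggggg
Mcoln1, chr8:3500269-3500568: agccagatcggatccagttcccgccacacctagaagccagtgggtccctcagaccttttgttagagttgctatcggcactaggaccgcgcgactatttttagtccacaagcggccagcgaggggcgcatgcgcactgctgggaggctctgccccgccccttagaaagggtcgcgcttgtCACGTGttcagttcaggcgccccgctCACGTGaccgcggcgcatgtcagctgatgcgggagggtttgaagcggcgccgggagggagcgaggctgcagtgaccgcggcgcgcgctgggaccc

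The Mcoln1 window held 2 CACGTG matches, the Mcoln2 window 1 and the Mcoln3 window 0. None of the 3 held CATGTG. Over all 32851 RefSeq windows of this length 7.15% held CACGTG, 0.594% held it at least 2 times and 14.2% held CATGTG. The Tpcn2 window held neither motif. RefSeq sets the start sites of Mcoln3 and Mcoln2 inside the spans given above from GENCODE, so other start sites of these genes lie outside the windows.

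Endothelial transcripts were present in all libraries, beside far more of the pigment lineage. All 20 pan-endothelial markers passed the filter and summed to between 809 and 5550 CPM (counts scaled to equal library size, with TMM factors) in B16F10 and between 1100 and 5980 CPM in B16F0. The 20 melanocytic markers summed to 13300 to 24800 CPM in B16F10 and 18000 to 27500 CPM in B16F0. Library totals ran from 5322510 to 20569186 counts. Rn45s, which encodes the precursor of ribosomal RNA, made up 31.4% and 8.91% of the counts of B16F10 replicate 5 and B16F0 replicate 5, against at most 1.75% elsewhere. Olfactory, vomeronasal and taste receptor genes, which most tissues do not express, together reached 960 and 778 CPM in replicates 1 and 2 of B16F10, against 10.6 to 340 CPM in the other 10 libraries.

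Mcoln3 was read in every B16F10 library, with counts of 173, 269, 435, 111, 212, 778 and 665 in replicates 1 to 7. In CPM these were a lowest value of 13.2, a median of 26.9 and a highest of 50.4. The 5 B16F0 libraries held 2, 2, 0, 12 and 7 reads, or 0.134, 0.121, 0, 0.677 and 0.733 CPM in replicates 1 to 5. The groups did not overlap, and the lowest B16F10 library stood far above the highest B16F0 library. Over all tested genes 1.27% had every B16F10 library above every B16F0 library and 1.46% had every one below, but nothing is read from this for Mcoln3, since this contrast chose it. The mean was 29.6 ± 11.7 CPM in the 7 B16F10 libraries and 0.333 ± 0.344 CPM in the 5 B16F0 libraries (SD), and the fitted log2 fold change of 6.51 ± 0.43 (SE) depends on few B16F0 reads. In such bulk precipitates fewer cells of a type and less RNA per cell cannot be told apart.

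**Figure D1:**
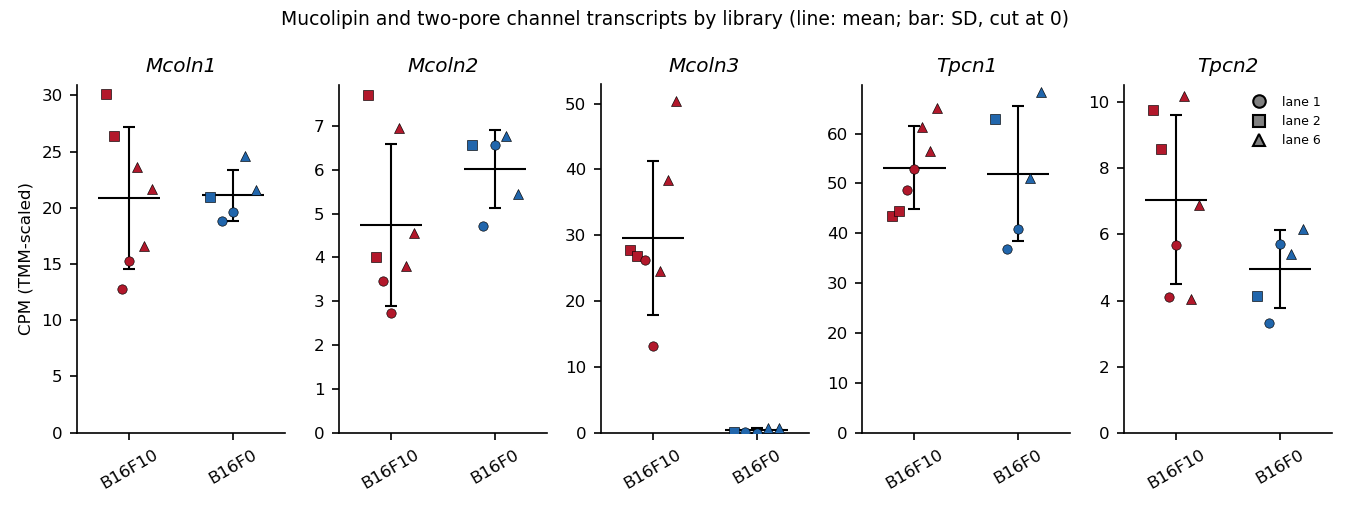
CPM of the 5 channel genes in each library (vertical axes, linear, each with its own range), with B16F10 left of B16F0. Points are libraries, shaped by sequencing lane, lines are group means and bars are SD; Mcoln3 ran from 13.2 to 50.4 CPM in B16F10 and from 0 to 0.733 CPM in B16F0, while the groups overlapped for the other 4 genes.

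The few Mcoln3 reads of B16F0 were not spread evenly over the sequencing lanes. On lane 6 the mean was 37.8 CPM in 3 B16F10 libraries and 0.705 CPM in 2 B16F0 libraries, so that B16F0 stood at 1.87% of the B16F10 level of the same lane. On lane 1 the means were 19.7 and 0.0605 CPM (2 libraries each), or 0.306%, and on lane 2 they were 27.3 CPM in 2 libraries and 0.134 CPM in 1 library, or 0.490%. The exact Poisson 95% intervals, which cover counting error only, were 0.350 to 1.18 and 0.295 to 1.51 CPM in B16F0 replicates 4 and 5 of lane 6. In B16F0 replicates 1 and 2 they were 0.0162 to 0.483 and 0.0146 to 0.437 CPM. In B16F0 replicate 3, with a count of 0, the interval was 0 to 0.315 CPM, and 3 counts would equal 0.256 CPM. The intervals of the B16F0 libraries of lane 6 overlap those of replicates 1 and 2. The interval of replicate 3 overlaps those of replicates 1, 2 and 5. Overlap of intervals alone does not show that counting error covers the order of these libraries, and no pair of them was tested.

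Mcoln1, the paralog found in most cells, did not follow the pattern. It stood at 12.8 to 30.1 CPM with a median of 21.7 in B16F10, and at 21, 18.8, 19.6, 24.6 and 21.6 CPM in B16F0 replicates 1 to 5. The highest and the lowest values of the gene were both in B16F10. The fitted change was -0.14 ± 0.16 on the log2 scale (SE), with an adjusted p of 0.766 in edgeR's quasi-likelihood test over all genes. The 95% interval of the fold, 0.713 to 1.2, bounds the difference that these libraries allow. The 2 highest Mcoln1 values, 30.1 and 26.4 CPM, were those of B16F10 replicates 1 and 2, the libraries with the most receptor gene reads, whose part in these values was not tested.

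Mcoln2, the direct neighbour of Mcoln3, was the least abundant member in B16F10. It stood at 2.73 to 7.70 CPM with a median of 4 in B16F10 and at 6.56, 4.72, 6.57, 6.77 and 5.45 CPM in the B16F0 libraries. The groups overlapped, with 5 B16F10 libraries below the lowest B16F0 library and the other 2 above all of them. The log2 fold change, with its SE, was -0.45 ± 0.25 (edgeR adjusted p = 0.452), and the 95% interval of the fold was 0.499 to 1.07. The point estimate thus ran opposite to that of Mcoln3. The macrophage markers, listed because Mcoln2 is known from immune cells, were all detected and summed to 30.1 to 258 CPM in B16F10 and 59.8 to 281 CPM in B16F0, and their part in the Mcoln2 level was not tested.

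The two-pore channels also overlapped between the lines. Tpcn1 was the member with the most reads, at 43.4 to 65.2 CPM with a median of 53.0 in B16F10 and at 62.9, 36.9, 40.8, 51.1 and 68.3 CPM in the B16F0 libraries. The fitted log2 change of Tpcn1 was 0.021 ± 0.15 (SE; edgeR adjusted p = 0.970), with a 95% interval of the fold of 0.812 to 1.27. Tpcn2 stood at 4.04 to 10.2 CPM with a median of 6.90 in B16F10 and at 4.15, 3.33, 5.71, 5.41 and 6.18 CPM in B16F0. Its 4 highest values were in B16F10, in replicates 5, 1, 2 and 7, and its lowest in B16F0. The log2 fold change of Tpcn2, with its SE, was 0.41 ± 0.28 (edgeR adjusted p = 0.558), with an interval of the fold of 0.872 to 2.01.

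Of the 4 members besides Mcoln3, 0 passed in edgeR's test, where 2.77% of all genes passed in either direction. None had an unadjusted p under 0.05, where 14.8% of all genes did. DESeq2 and limma-voom called 0 of them, and 6.30% and 4.94% of all genes. The direction of Mcoln1 was the same in lanes 1 and 6, with differences of mean log2 CPM of -0.45 and -0.18, and opposite in lane 2, at 0.42. Mcoln2 had a lower mean log2 CPM in B16F10 in each lane, with differences of -0.83, -0.23 and -0.29 in lanes 1, 2 and 6. The differences of Tpcn1 were 0.39, -0.52 and 0.045, and those of Tpcn2 were 0.14, 1.12 and 0.18. Those of Mcoln3 were 6.5, 6.57 and 5.40. In the authors' deposited table the log2 fold changes were 6.49 for Mcoln3, -0.15 for Mcoln1, -0.46 for Mcoln2, 0.0091 for Tpcn1 and 0.41 for Tpcn2.

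Levels of different genes were compared per kb of the longest coding transcript, which measures 2.06 kb for Mcoln1, 2.52 kb for Mcoln2, 2.99 kb for Mcoln3, 4.71 kb for Tpcn1 and 2.99 kb for Tpcn2. On this scale Mcoln3 of B16F10 was one of 3 members at a like level, which depends on the length used. In B16F10 Tpcn1 averaged 11.3 ± 1.76, Mcoln1 10.1 ± 3.06 and Mcoln3 9.91 ± 3.93 CPM per kb (SD, n = 7), and each of these was above the next in 5 and 4 of 7 libraries, so their order is within the spread. Tpcn2 followed at 2.35 ± 0.855 CPM per kb, below Mcoln3 in 7 of 7 libraries with no overlap of ranges. Mcoln2 was last at 1.88 ± 0.739 CPM per kb and lay below Tpcn2 in 6 of 7. Per kb of union exon length the B16F10 order was Mcoln3 at 8.55 ± 3.39, Tpcn1 at 6.29 ± 0.982, Mcoln1 at 2.77 ± 0.836, Mcoln2 at 1.44 ± 0.566 and Tpcn2 at 1.34 ± 0.487 CPM per kb.

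Per kb of the longest coding transcript, Tpcn1 and Mcoln1 again stood at the top in B16F0 and Mcoln3 stood last. On this scale the places of Mcoln2 and Tpcn2 were exchanged against B16F10. Tpcn1 averaged 11.0 ± 2.88 and Mcoln1 10.2 ± 1.09 CPM per kb (SD, n = 5), with Tpcn1 above Mcoln1 in 2 of 5 libraries. Mcoln2 averaged 2.39 ± 0.353 CPM per kb, below Mcoln1 in 5 of 5 libraries, and stood above Tpcn2, at 1.66 ± 0.395, in 5 of 5 although their ranges overlapped. Mcoln3 was last at 0.111 ± 0.115 CPM per kb, below all values of Tpcn2. With union exon length, Mcoln2 averaged 1.83 ± 0.271 and Tpcn2 0.943 ± 0.225 CPM per kb in B16F0. On that scale Mcoln2 was above Tpcn2 in both lines, so the exchange depends on the length used.

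Mcoln3 made up much of the mucolipin transcripts in B16F10. Its share of the summed CPM per kb of the 3 mucolipins was 34.1% to 57.8% with a median of 38.5% in B16F10 and 0.349%, 0.367%, 0%, 1.52% and 1.91% in B16F0 replicates 1 to 5. The mean share was 44.7% ± 11.1 over the 7 B16F10 libraries and 0.829% ± 0.833 over the 5 B16F0 libraries (SD). Shares above 50% were found in B16F10 replicates 3, 6 and 7, and the other 4 libraries of the group lay between 34.1% and 38.5%. As a share of mucolipin counts, with no scaling by length, Mcoln3 took 65.8% of 1011 counts in replicate 7 of B16F10 (62.8 to 68.7, 95% interval by Clopper-Pearson) and 42.2% of 263 in replicate 4 (36.2 to 48.4). In B16F0 replicate 3 it took 0 of 307, with an upper bound of 1.19%.

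The total of the 3 mucolipins was 21.9 ± 5.66 CPM per kb over the 7 B16F10 libraries and 12.7 ± 1.40 CPM per kb over the 5 B16F0 libraries (SD). B16F10 replicate 4, at 12.9 CPM per kb, lay within the range of B16F0, and the other 6 lay above it. The sum without Mcoln3, a measure that the choice of the family did not use, was 12.0 ± 3.66 in B16F10 and 12.6 ± 1.32 CPM per kb in B16F0 (exact permutation test over 792 splits, two-sided, p = 0.725). The sum of both two-pore channels was 13.7 ± 1.89 and 12.7 ± 3.07 CPM per kb in the same groups (exact permutation p = 0.510). Neither sum differed beyond the spread between libraries. Adjusted over the 5 library measures compared in this way both p were 0.986.

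**Figure D2:**
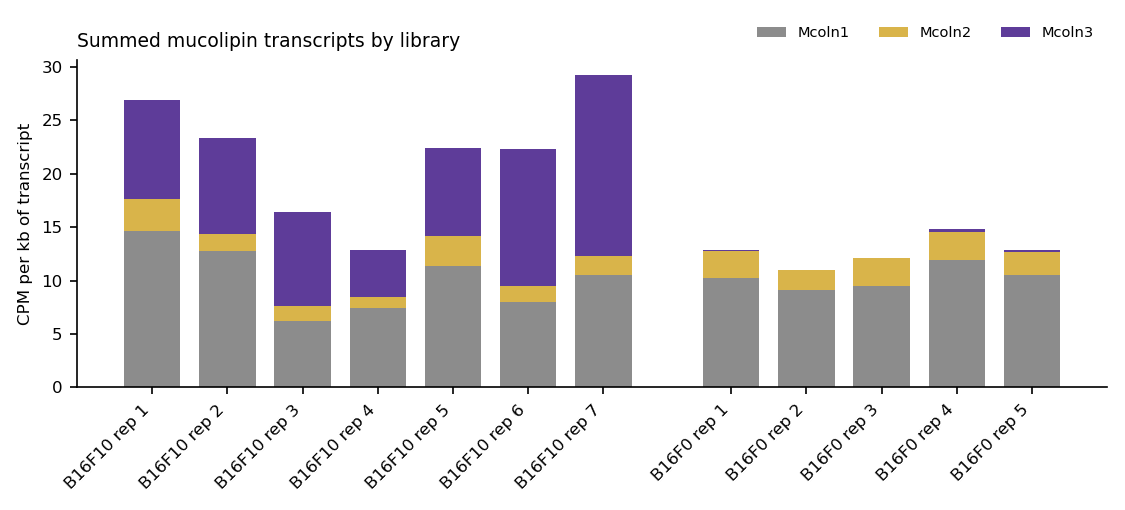
Summed mucolipin transcripts in each library as CPM per kb of the longest coding transcript (vertical axis), stacked by gene, with B16F10 libraries left of B16F0 libraries. The grey and yellow parts (Mcoln1 and Mcoln2) averaged 12.0 in B16F10 and 12.6 in B16F0, and the purple part (Mcoln3) is visible in B16F10 and almost absent in B16F0.

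Mcoln3 was also set against the endothelial mRNA of each library. The endothelial score, which averages the log2 CPM of those 20 pan-endothelial genes, ran from 4.53 to 7.26 in B16F10 and from 4.51 to 7.33 in B16F0. Taken in order of rising score, the B16F10 replicates 7, 6, 1, 2, 3, 5 and 4 held Mcoln3 at 50.4, 38.4, 27.7, 26.9, 26.3, 24.6 and 13.2 CPM. The B16F0 replicates 5, 4, 1, 2 and 3, in the same order, held 0.733, 0.677, 0.134, 0.121 and 0 CPM. The point values of Mcoln3 thus went down at each step. The Poisson intervals of B16F10 replicates 1, 2, 3 and 5 overlap, as do those of B16F0 replicates 1, 2, 4 and 5. That of B16F0 replicate 3 overlaps those of B16F0 replicates 1, 2 and 5. Such overlap does not decide whether libraries differ beyond counting error, and no pair of libraries was tested for Mcoln3.

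Over the 7 B16F10 libraries Spearman's rho of Mcoln3 log2 CPM with the score was -1 and Pearson's r was -0.874. Without replicates 4 and 5, the libraries farthest from the median score, r was -0.931. The order was noticed in these same values, so both are a description and no p is given. The other 4 had r between -0.254 and 0.117 and rho between -0.393 and 0.179 in B16F10. Without B16F10 replicates 4 and 5 the r of Tpcn1 was -0.785. Over the 5 B16F0 libraries rho was -1 for Mcoln3, -0.8 for both Mcoln1 and Tpcn1, -0.4 for Tpcn2 and 0 for Mcoln2. A fall with the score in B16F0 was thus not particular to Mcoln3. With rho of -1 over the 7 B16F10 libraries, the falling order of Mcoln3 holds within each lane by necessity, which is no separate check on the lane. The 2 B16F10 libraries of lowest score were both from lane 6.

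Slopes on the score were also fitted over all 12 libraries, with lane and line in the model. These fits use the same values in which the order was noticed, so the p of Mcoln3 is no separate support for that order. The slope of Mcoln3 was -0.51 ± 0.13 log2 CPM per unit of score (SE; limma adjusted p = 0.0451), and it passed among the 0.547% of genes that fell with the score, where 4.43% rose. With the 7 B16F10 libraries alone it was -0.48 (limma adjusted p = 0.0256). Leaving out any single B16F10 library, or B16F0 replicate 3 or 5, ended the call (limma adjusted p between 0.0571 and 0.282), with slopes of -0.54 to -0.45. It also ended without the 3 libraries of highest score (-0.36, adjusted p = 1), and with the pair of Rn45s-rich libraries left out (-0.44, adjusted p = 0.1).

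No paralog shared this call. The slopes were 0.09 ± 0.10 for Mcoln1, 0.18 ± 0.15 for Mcoln2, 0.02 ± 0.10 for Tpcn1 and 0.28 ± 0.15 for Tpcn2 (SE; limma adjusted p = 0.631, 0.515, 0.917 and 0.313). A difference between the slope of Mcoln3 and those of its paralogs was not tested.

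**Figure D3:**
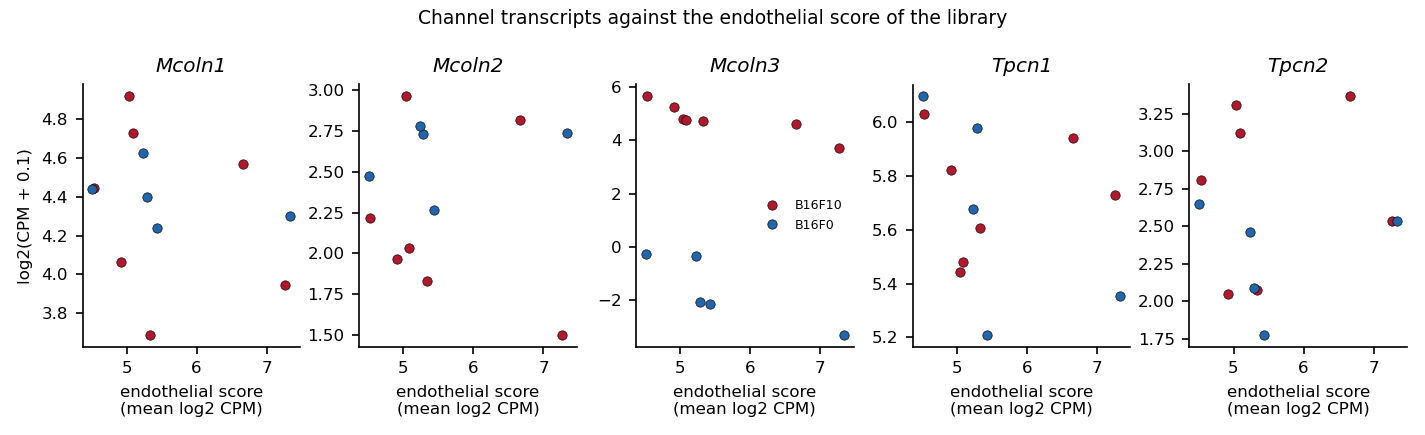
Log2(CPM + 0.1) of each channel gene (vertical axes) against the endothelial score of the library (horizontal axes, mean log2 CPM of 20 markers), one point per library. In the Mcoln3 panel the points of both lines descend from left to right at separate heights. The other panels show no order common to both lines, though rho was -0.8 for Mcoln1 and Tpcn1 in B16F0.

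Against the melanocytic score, the mean log2 CPM of 20 pigment cell genes, the members took different directions. This score was 8.21 ± 0.22 in B16F10 and 8.56 ± 0.167 in B16F0 (SD, n = 7 and 5; exact permutation p = 0.0189, adjusted 0.0947). With lane and line in the model the slope of Mcoln3 was 1.28 ± 0.75 (SE; limma adjusted p = 0.207; with limma-voom 1.55, adjusted p = 0.0410), that of Mcoln1 -0.73 ± 0.39 (0.168), that of Mcoln2 -0.59 ± 0.64 (0.503) and that of Tpcn1 0.04 ± 0.40 (0.949). Tpcn2 fell with the score, at -1.74 ± 0.55 (SE; limma adjusted p = 0.0349). Such calls were common, since 14.9% of all genes fell and 13.3% rose with this score. Leaving out B16F10 replicate 1, 3 or 6, or B16F0 replicate 1, 2, 3 or 5, ended the Tpcn2 call (limma adjusted p between 0.0519 and 0.0983), with slopes of -2.33 to -1.44. It ended as well without the 3 libraries of lane 2 (-1.54, adjusted p = 0.110), with limma-voom (-1.52, 0.0577) and when the 3 most endothelial libraries were left out (-2.31, 0.116). B16F10 replicates 5, 1 and 2, the 3 libraries with the most Tpcn2, were also the 3 with the most receptor gene reads, at 340, 960 and 778 CPM, and the part of these reads in the slope was not tested.

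The genes around Mcoln3 that could be tested were not called between the lines. Of 16 protein-coding genes that start within 500 kb of its start, Mcoln3 included, 12 passed the filter, and of the 11 besides Mcoln3 0 passed in edgeR's test, against the 2.77% of all genes. At an unadjusted p under 0.05 there were 1 higher and 1 lower gene, and DESeq2 called 1 and limma-voom 0. Ssx2ip was called with the library name prefix in place of the lane, at a log2 difference of 0.47 (edgeR adjusted p = 0.0494), and Rpf1 with the melanocytic score as a covariate (0.70, adjusted p = 0.0293). Mcoln2, whose start lies 32.4 kb from that of Mcoln3, had the change of -0.45 given above. The nearest of the other tested genes were Syde2 on one side and Ssx2ip, which encodes a centriole and adhesion protein, on the other. Their log2 fold changes were 0.13 ± 0.23 and 0.35 ± 0.13 (SE; edgeR adjusted p = 0.863 and 0.227).

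Farther out, Ddah1, an enzyme that breaks down inhibitors of nitric oxide synthase, stood at 35.4 ± 11.5 CPM in the 7 B16F10 libraries and 56.7 ± 19.4 CPM in the 5 B16F0 libraries (SD), a log2 difference of -0.63 (edgeR adjusted p = 0.106; DESeq2 adjusted p = 0.0410). Cyr61, a matricellular protein gene also named Ccn1, stood at 92.1 ± 12.3 and 68.8 ± 32.1 CPM (0.51, edgeR adjusted p = 0.444). The signalling adaptor gene Bcl10, 2410004B18Rik, Ctbs, Spata1, Gng5 and Rpf1 had log2 fold changes between -0.22 and 0.28 and edgeR adjusted p from 0.377 to 0.986.

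The 4 neighbours below the filter held few reads. Wdr63, whose start is 9.32 kb from that of Mcoln3 on the opposite strand, summed to 74 counts in B16F10 and 43 in B16F0, with means of 1.08 ± 0.610 CPM (SD, n = 7) and 0.642 ± 0.202 CPM (SD, n = 5). Lpar3, a receptor for lysophosphatidic acid and the next gene after Mcoln2, held counts of 1, 5, 0, 5, 7, 1 and 1 in B16F10 replicates 1 to 7 and 0, 0, 0, 1 and 1 in B16F0 replicates 1 to 5. Its summed counts were 20 in B16F10 and 2 in B16F0. Uox and Dnase2b summed to 19 and 14 counts in B16F10 and 7 and 1 in B16F0. Without lane 2 the Dnase2b counts were 2 and 1.

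**Figure D4:**
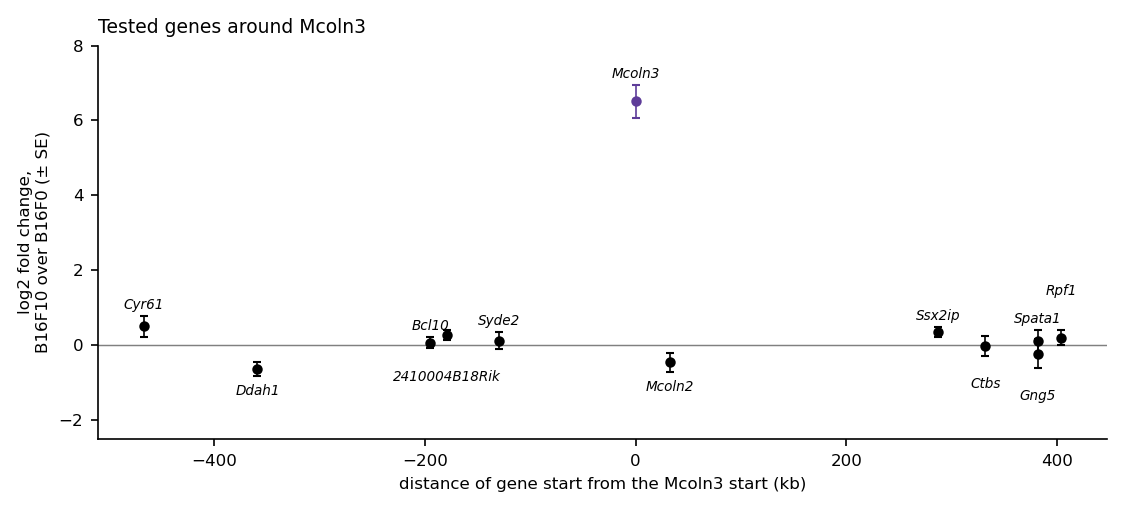
Fitted log2 fold change of B16F10 over B16F0 with its SE (vertical axis) for the 12 tested protein-coding genes that start within 500 kb of Mcoln3, placed by distance between start sites (horizontal axis, kb). Mcoln3 stands at 6.51 and the other 11 lie between -0.63 and 0.51.

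Related genes of the organelle and of calcium release were counted by list. Over 167 genes in 8 lists, 153 were tested, 0 were higher and 2 were lower in B16F10, or 1.31% against 2.77% of all genes. Their median log2 fold change was -0.079, against 0.019 over all tested genes. The count is small, and it was 10 with DESeq2 and 4 with limma-voom. With single libraries left out it was 5 without B16F10 replicate 3, and 1 without B16F10 replicate 1, 2, 4, 6 or 7 or B16F0 replicate 1, 2 or 4.

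The counts by list are to be read against the shares of all genes, 14.8% at an unadjusted p under 0.05, 6.30% by DESeq2 and 4.94% by limma-voom. Among 19 tested channels and exchangers of endosomes and lysosomes other than the members, none passed, with 0 at an unadjusted p under 0.05 and 0 by DESeq2 or limma-voom. The list holds the lysosomal potassium channel Tmem175 and the chloride transporters of the Clcn family. Its smallest p was that of Clcn5, at 50.8 ± 9.31 CPM in the 7 B16F10 libraries and 62.2 ± 6.14 CPM in the 5 B16F0 libraries (SD; edgeR adjusted p = 0.373). The median of the list was -0.07.

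Of 25 other TRP channels, the superfamily of the mucolipins, 14 were tested and 0 passed in edgeR's test. At an unadjusted p under 0.05 the list held 1 higher and 1 lower gene, and DESeq2 called 2 and limma-voom 1. Trpm1, a pigment cell channel gene transcribed under Mitf, was the lower one, at 650 ± 108 CPM in the 7 B16F10 libraries and 979 ± 209 CPM in the 5 B16F0 libraries (SD). Its log2 fold change, with its SE, was -0.61 ± 0.17 (edgeR adjusted p = 0.0802), and it passed with DESeq2 (adjusted p = 0.00571), with limma-voom (0.0296), without B16F10 replicate 3 (edgeR 0.0233), with the library name prefix in place of the lane (0.0328) and with the endothelial score as a covariate (0.0471). Trpm1 rose with the melanocytic score, with a slope of 1.05 (limma adjusted p = 0.0347), and with that score in the model its log2 fold change was -0.27 (edgeR adjusted p = 0.351). The other list genes named here also moved toward 0 with that score in the model. Hn1l went from -0.56 to -0.12 and Pdcd6 from -0.40 to -0.075, while Rab5b went from -1.04 to -0.99. Hn1l and Pdcd6 rose with the score too, with slopes of 1.26 and 0.92 (limma adjusted p = 0.00963 and 0.0433). Trpm3, a channel opened by steroids and heat, stood at 3.63 ± 1.54 and 1.46 ± 1.05 CPM (1.23, edgeR adjusted p = 0.162, DESeq2 0.0456).

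The upstream and downstream partners of the channels showed 0 calls. Of 20 phosphoinositide enzymes, with the PIKfyve complex that makes the mucolipin ligand, 0 passed. At an unadjusted p under 0.05 there were 2, both lower, and DESeq2 called 2 and limma-voom 1. These were Mtmr6, a phosphatase that removes such lipids, at 63.0 ± 12.4 and 92.6 ± 22.4 CPM (edgeR adjusted p = 0.0655), and Tmem55b, a lysosomal membrane phosphatase also named Pip4p1, at 9.03 ± 1.20 and 13.0 ± 2.37 CPM (0.0787) in B16F10 and B16F0. For Tmem55b the highest B16F10 value, 10.5 CPM, was below the lowest of B16F0, 10.7 CPM.

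Of 10 channel partners and NAADP binding proteins 0 passed (2 lower at an unadjusted p under 0.05, 1 by DESeq2 and 0 by limma-voom). Hn1l, also named Jpt2, which binds NAADP for two-pore channels, stood at 64.4 ± 17.9 CPM in B16F10 and 97.6 ± 25.4 CPM in B16F0 (SD, n = 7 and 5; edgeR adjusted p = 0.107), and it passed with DESeq2 (0.0413) and without B16F10 replicate 3 (edgeR 0.0469). The calcium sensor Pdcd6, a partner of Mcoln1, stood at 38.1 ± 10.6 and 51.7 ± 13.0 CPM (0.219). Of 24 genes of the MiT factors and lysosomal mTORC1 0 passed (1 higher and 2 lower at an unadjusted p under 0.05, 1 each by DESeq2 and limma-voom). The smallest p of that list were those of the calcineurin subunit Ppp3cb, at 91.8 ± 15.9 and 135 ± 15.4 CPM (0.0740), and of Fnip1, a partner of folliculin, at 266 ± 46.7 and 373 ± 43.1 CPM (0.166).

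Calls were made in the lists of endosome and lysosome membrane genes and of autophagy. Rab5b, a small GTPase of early endosomes, was the 1 of 29 tested genes of the first that passed. It stood at 23.4 to 28 CPM with a mean of 25.2 ± 1.58 (SD, n = 7) in B16F10 and at 46.0 to 54.9 CPM with a mean of 51.4 ± 3.75 (SD, n = 5) in B16F0. The groups did not overlap, and the spread within each was small. Its log2 fold change, with its SE, was -1.04 ± 0.11 (edgeR adjusted p = 0.000205), and its slope on the endothelial score was -0.01 (limma adjusted p = 0.951). The median of that list was -0.25, with 7 of 29 above 0, where 52.5% of all tested genes were. With the library name prefix in place of the lane 3 genes of that list were called.

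Gabarapl1, an autophagosome protein of the Atg8 family, was the 1 of 21 autophagy genes that passed, also as lower. It stood at 58.0 ± 6.88 CPM in the 7 B16F10 libraries and 84.5 ± 10.9 CPM in the 5 B16F0 libraries (SD), without overlap (log2 fold change -0.55, edgeR adjusted p = 0.0471). Only with B16F10 replicate 5 left out did the call hold when single libraries were removed. For the other 11 the adjusted p was between 0.0611 and 0.189. Of 27 alternatives, 21 ended the call, among them no batch term (edgeR adjusted p = 0.0562), leaving out lane 2 (0.294) and limma-voom (0.0668). DESeq2 kept it (adjusted p = 0.00393). At an unadjusted p under 0.05 the autophagy list held 4 lower genes, and DESeq2 called 2 and limma-voom 0. Of 17 tested genes of calcium release from the endoplasmic reticulum and store-operated entry 0 passed (1 higher at an unadjusted p under 0.05, 0 by DESeq2 and limma-voom). The inositol trisphosphate receptor Itpr2 stood at 92.2 ± 14.1 and 66.0 ± 9.45 CPM in B16F10 and B16F0 (edgeR adjusted p = 0.151, and 0.0453 without B16F0 replicate 3), and the muscle channel gene Ryr1 at 0.545 to 15.5 and 0.451 to 1.99 CPM (0.374).

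**Figure D5:**
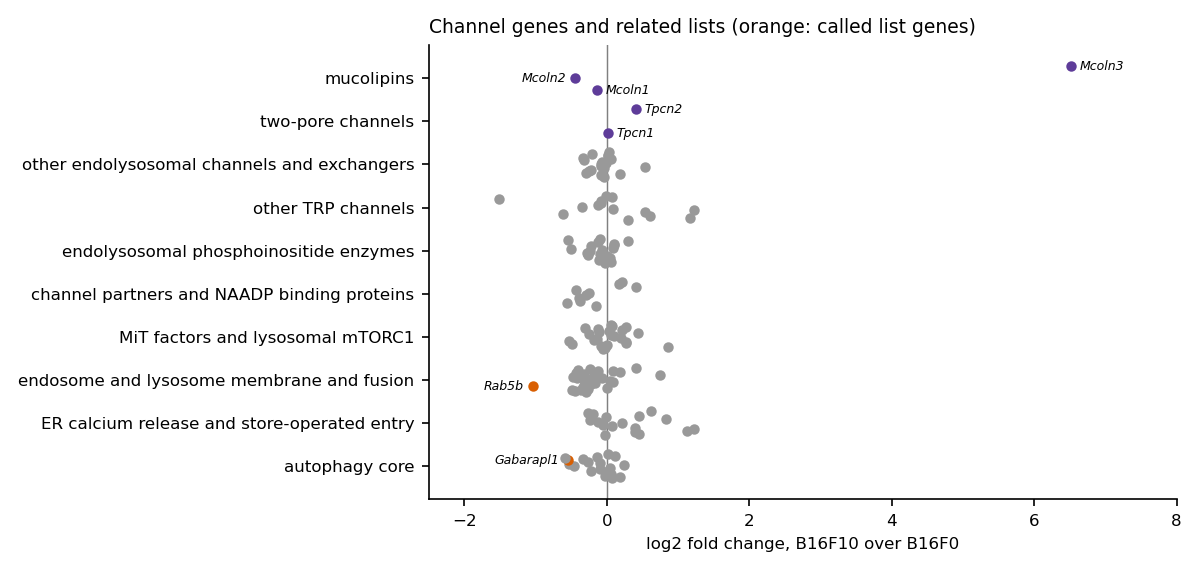
Fitted log2 fold change of B16F10 over B16F0 (horizontal axis) for the channel genes (purple) and for each tested gene of 8 related lists (grey, or orange where edgeR called it), one row per list. Mcoln3 stands at 6.51, and the called genes Rab5b and Gabarapl1 stand at -1.04 and -0.55.

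The transcripts whose level ran most like Mcoln3 over the 12 libraries were ranked by Pearson's r of log2 CPM among 10137 named genes of at least 5 CPM. The 10 highest were Map7, Fam73a, Fam81a, Art5, Tmeff1, Col4a4, Slit2, Fbxo42, Slc2a5 and Pycard, with r from 0.941 to 0.988. The 5 lowest were Mgll, Abcc2, Phyhipl, Dennd5b and L1cam, with r from -0.988 to -0.943. These r rest on the difference between the lines. Map7, a microtubule-associated protein gene, stood at a mean of 14.0 CPM in B16F10 and 1.76 CPM in B16F0, and Mgll, a monoacylglycerol lipase gene, at 97.0 and 596 CPM.

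Over the 7 B16F10 libraries alone the 5 highest were Pnpla7, BC023829, Polr2i, Lyst and Poglut1, with r from 0.933 to 0.984. Their log2 fold changes between the lines ran from -0.59 to 0.06. One of them was Lyst, a regulator of lysosome and melanosome size, at 419 CPM in B16F10 and 475 CPM in B16F0. None of the 5 was among the 10 genes named over the 12 libraries. The paralogs ranked far lower, with r to Mcoln3 over the 12 libraries of -0.023 for Mcoln1, -0.41 for Mcoln2, 0.23 for Tpcn1 and 0.46 for Tpcn2. Within B16F10 they were 0.23, 0.31, 0.35 and -0.06. All of these r are a description over the same few libraries, which differ in depth and endothelial content.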

How the data were processed

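Read counts per gene symbol, in whole numbers, were deposited by the authors for 12 libraries made with a ScriptSeq kit, per the labels' protocols. Per the submitters' processing notes, the tools were edgeR, R 3.3.2, featureCounts 1.6.0, STAR 2.2.1 and cutadapt 1.16, with build mm10 and no settings. For annotation and strandedness nothing is given in the sources used here. The deposited comparison table writes decimal commas, read here as points. A deposited normalized table had lost its decimal marks and was left out.

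Groups came from the titles and lanes from the library names. Genes kept by filterByExpr (minimum count 10) received TMM factors and were tested in edgeR 4.0.16 (quasi-likelihood F test, lane as a factor, Benjamini-Hochberg, false discovery rate 0.05) under R 4.3.3. The SE is the log2 fold change over the square root of F. Slopes used limma 3.58.1 with trend on log2 CPM (prior count 2), and DESeq2 1.42.0 was an alternative. The fits were tested on simulated data. Positions and lengths came from GENCODE M21 (GRCm38), which held 95.7% of the symbols. RefSeq windows were given for 4 of the 5 members, without Tpcn1. Within a group every pair of libraries differed by more than sampling noise (chi-square per degree of freedom of 7.21 or more). Intervals and floors cover counting error only.

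The members, lists and tests were chosen with earlier results of these data known. Named were all members, called genes of each list or else its 2 of smallest p, neighbours within 500 kb and the genes most like Mcoln3; 1 list gene is not reported here. The melanocytic slopes, the union exon length (for the share and the order of members) and the ordering by endothelial score were chosen after seeing the data.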

Additional observations from a re-analysis of the deposited data

Results flagged for a closer look

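Among 56 group and gene pairs examined, 4 held 1 library far from the others of its group, where chance gives about 1 in 20. None was a mucolipin or a two-pore channel. B16F10 replicate 3 was highest for 3 of them. It held Hn1l at 102 CPM (others 48.7 to 68.8), 2410004B18Rik at 22.8 CPM (others 12.7 to 17.0) and Rpf1 at 55.8 CPM (others 23.6 to 32.5). B16F10 replicate 2 held the skeletal muscle calcium release channel gene Ryr1 at 15.5 CPM (others 0.545 to 6.09).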

How the results depend on the processing

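Mcoln3 kept its direction in the 27 alternatives run, with log2 fold changes from 6.21 to 6.98. Mcoln1 (-0.39 to -0.02) and Mcoln2 (-0.71 to -0.34) also kept theirs, and no alternative called any of the 4 other members between the lines. Tpcn1 lay near 0 and turned to -0.0217 with the replicate block, -0.0471 with no filter and -0.0404 with the 3 most endothelial libraries left out, and ran from -0.0477 to 0.192 with single libraries left out. Tpcn2 turned to -0.2 with the melanocytic score as a covariate. The Mcoln3 share of mucolipin transcripts was 65.7% with union exon length in place of the coding transcript. The causes were not tested.

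Replicate numbers did not pair the libraries, since same-numbered libraries correlated at -0.287 to 0.322 and 1 of 5 pairs correlated best with its own number. With the replicate block in place of the lane 30 genes were higher, 28 lower and 0 of the related lists were called, and Rab5b was at -1.02 (adjusted p = 0.0586). Genes higher in B16F10 (176) numbered 325 with the library name prefix, 271 with the melanocytic score, 407 with DESeq2, 333 with limma-voom, 111 without the Rn45s-rich libraries and 94 without lane 2. In the fit with the prefix the libraries of lane 2, whose prefixes each occur in a single line, add nothing to the estimated difference. Genes lower (199) numbered 131 with no batch term, 305 with the prefix, 132 with library totals, 445 with DESeq2, 336 with limma-voom, 125 without the Rn45s-rich libraries and 81 without lane 2. Called related genes (2) numbered 1 with no batch term, library totals, no filter or without lane 2, 4 with the prefix, the endothelial score or limma-voom, and 10 with DESeq2. With single libraries left out the counts were 109 to 202 higher, 101 to 248 lower and 1 to 5 related. The count of lower genes was 126 and 121 without B16F10 replicates 1 and 2, and 116, 131, 101 and 115 without B16F0 replicates 1, 2, 4 and 5. That of higher genes was 109 without B16F0 replicate 4.

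The endothelial slope of Mcoln3 was negative throughout (-0.559 to -0.451 with single libraries left out) and lost its call with the melanocytic score in the model (-0.6), a prior count of 0.5 (-0.733), without the 3 libraries of highest score (-0.356) and without the Rn45s-rich libraries (-0.442). With line alone in the model the slopes of Mcoln1, Mcoln2 and Tpcn1 turned to -0.0906, -0.027 and -0.0826. With the melanocytic score those of Mcoln1 and Tpcn2 turned to -0.0608 and -0.00314. Without the 3 libraries of highest score those of Mcoln1, Tpcn1 and Tpcn2 were -0.142, -0.459 and -0.752. That of Tpcn1 ran from -0.0297 to 0.0655 with single libraries left out. On the melanocytic score Tpcn1 turned to -0.283 with line alone, -0.212 with limma-voom and -0.339 without lane 2 (-0.317 to 0.432 with single libraries left out), and Mcoln3 to -1.12 without the 3 libraries of highest endothelial score.

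Neighbours near 0 changed sign. With the block Ctbs was 0.0816 and Spata1 -0.0481. With the prefix Syde2 was -0.13, Ctbs 0.135 and Spata1 -0.164. With the melanocytic score Cyr61 was -0.0289, Syde2 -0.252, Ctbs 0.00539, Spata1 -0.245 and Gng5 0.545. With limma-voom Syde2 was -0.0133, Ctbs 0.0447 and Spata1 -0.0736. Without lane 2 they were -0.131, 0.107 and -0.15. Bcl10 was -0.0353 without the Rn45s-rich libraries and Ctbs 0.129 without the 3 libraries of highest endothelial score. With single libraries left out Ctbs ran from -0.17 to 0.143, Spata1 from -0.162 to 0.235, Syde2 from -0.142 to 0.282, Gng5 from -0.421 to 0.0628 and Rpf1 from -0.00427 to 0.32. Depth limits Mcoln3 in B16F0, where 23 reads were counted in all.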
